A study of Homo sapiens with 4 samples.

Results

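The hepatobiliary lineage transcription factors are DNA-binding proteins that specify and maintain liver and bile duct cells. Of the 8 chosen by name (SOX9, ONECUT1, FOXA1, FOXA2, FOXA3, HNF4A, HNF4G and PROX1), 7 had an array row whose annotation gives that symbol alone, out of 18377 genes with such rows. HNF4A was not analysed here. Levels were measured in the human bile duct cancer line HuCCT1 (cholangiocarcinoma) under 4 conditions: cells given VPA, cells given GEM, cells given GEM and VPA together (GEM_VPA, the combination) and untreated cells. The series sets each drug and the combination against no drug. The labels write VPA and GEM without spelling them out; in cancer cells VPA commonly stands for valproic acid, which inhibits histone deacetylases, and GEM for gemcitabine, a nucleoside analogue. Each condition had 1 array of a single cell line. The labels give no dose or exposure time. Differences are therefore sizes on the log2 scale between 2 arrays, with no error and no test.

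In the embryonic liver, bipotent progenitors give rise to hepatocytes and to bile duct cells, or cholangiocytes. FOXA proteins are pioneer factors that open liver enhancers, HNF4A drives the hepatocyte programme, SOX9 marks the first duct cells and acts downstream of Notch signalling, and ONECUT1 (HNF-6) is needed for duct formation in mice. PROX1 is required for hepatoblast migration in mice and restrains nuclear receptors, and HNF4G is the paralogue of HNF4A best known in the intestine.

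RefSeq promoters were at hand for 3 of the 7 measured members, ONECUT1, FOXA1 and FOXA3. They are shown because no promoter was at hand for the other measured members, SOX9, FOXA2, HNF4G and PROX1. The members with the widest ranges over the arrays, SOX9 and HNF4G, are thus not among those shown. Each line gives the 250 bases before the annotated start, 5′ to 3′ on the gene's strand (GRCh38.p14). Capitals mark matches on either strand to 7 motifs: the forkhead letters TGTTTAC, their variant with TGTTTGC, the nuclear receptor core AGGTCA, the ONECUT core ATCGAT, the SOX core ACAAAG, the GC box GGGCGG and the TATA box TATAAA.
ONECUT1, chr15:52790337-52790586, minus strand: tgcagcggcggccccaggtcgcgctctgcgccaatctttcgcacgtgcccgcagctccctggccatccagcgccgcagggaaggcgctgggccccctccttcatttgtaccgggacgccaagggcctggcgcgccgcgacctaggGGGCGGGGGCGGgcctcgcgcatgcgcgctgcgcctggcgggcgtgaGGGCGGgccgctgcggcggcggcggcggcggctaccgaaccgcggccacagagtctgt
FOXA1, chr14:37595250-37595499, minus strand: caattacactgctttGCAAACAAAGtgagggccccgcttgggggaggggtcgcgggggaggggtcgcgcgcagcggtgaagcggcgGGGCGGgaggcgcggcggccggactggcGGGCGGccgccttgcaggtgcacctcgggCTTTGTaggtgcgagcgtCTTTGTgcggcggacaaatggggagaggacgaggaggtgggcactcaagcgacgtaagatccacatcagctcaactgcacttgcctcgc
FOXA3, chr19:45864076-45864325, plus strand: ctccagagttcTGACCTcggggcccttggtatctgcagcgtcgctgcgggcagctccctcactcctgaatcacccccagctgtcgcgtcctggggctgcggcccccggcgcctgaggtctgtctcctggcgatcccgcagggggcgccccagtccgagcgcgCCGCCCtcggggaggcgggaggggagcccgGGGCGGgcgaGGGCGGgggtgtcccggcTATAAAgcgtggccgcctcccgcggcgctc
The FOXA1 promoter held 1 forkhead match (TGTTTGC, on the reverse strand, 235 to 229 bases before the start). That match shares bases with the first of 3 SOX matches, and 2 GC boxes lay nearer the start. The FOXA3 promoter held 1 nuclear receptor core, 3 GC boxes and a TATA box at 30 to 25 bases before the start. The ONECUT1 promoter held 3 GC boxes and none of the other motif letters in this window. Over 35116 promoter windows of the same length, TGTTTGC was found in 3.23%, ACAAAG in 13.7%, AGGTCA in 12.1%, GGGCGG in 42.6% and TATAAA in 10.7%. TGTTTAC was found in 2.98% and ATCGAT in 0.655%. All 3 windows were rich in CpG, with 37 CpG in ONECUT1, 26 in FOXA1 and 28 in FOXA3, against a median of 11 over all windows. A match is a description of the letters and no evidence of binding.

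The arrays formed 2 close pairs. The combination and untreated arrays correlated at 0.996 over all rows, as did the VPA and GEM arrays, and the remaining pairs correlated between 0.984 and 0.987. Taken over genes, the log2 differences had a robust SD of 0.15 for the combination over untreated and 0.16 for VPA over GEM, against 0.25 to 0.27 for the other 4 pairs. The conditions were not replicated, so a drug effect, an array effect and an exchange of arrays cannot be told apart, for any single-drug, combination or departure value given here. The 4 arrays had medians of 7.87 to 7.92. A gene was called at level in a comparison when its higher value reached the median of that array over all rows. SOX9, ONECUT1, FOXA1 and FOXA3 were at or above the median on all 4 arrays, FOXA2 and HNF4G were below it on all 4, and PROX1 was below the 25th percentile on all 4. The normalization compresses low values, and no detection call was at hand, so the ratios of FOXA2, HNF4G and PROX1 may be understated.

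Of the biliary markers used to check the cell type, KRT7, KRT19, EPCAM and CDH1 were above the array median on all 4 arrays, as was SOX9. The hepatocyte genes ALB, albumin, and CYP3A4, a drug-metabolising cytochrome, were below the 25th percentile on all 4, while SERPINA1, alpha-1 antitrypsin, and APOA1, an apolipoprotein, were above the median on all 4.

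SOX9, the duct cell factor, was higher on both single-drug arrays than on the other arrays. Its log2 level was 11.69 with VPA, 11.72 with GEM, 11.20 with the combination and 11.05 without drug. The VPA and GEM arrays lay within 0.03 of each other and both stood above the combination and untreated arrays. The log2 ratio over untreated was 0.64 with VPA (1.56-fold), 0.67 with GEM (1.59-fold) and 0.15 with the combination. These ratios share the untreated array. RNA came from whole cultures, so a different share of SOX9-expressing cells and a different amount of SOX9 RNA per cell cannot be told apart, here and for the other genes. Among genes at level, 14.1% had a difference at least as large in size as that of SOX9 with VPA, 13.1% with GEM and 36.7% with the combination. Adding the second drug went with a lower level: SOX9 was at -0.52 for the combination over GEM and at -0.49 for the combination over VPA.

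ONECUT1, the duct morphogenesis factor, had nearly the same level on every array. It was at 8.95 with VPA, 8.92 with GEM, 8.95 with the combination and 8.93 without drug. Its range of 0.03 was smaller than that of all but 0.147% of genes.

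The 3 FOXA genes encode forkhead proteins with closely related DNA-binding domains. Their ranges over the arrays were 0.31 for FOXA1, 0.17 for FOXA2 and 0.20 for FOXA3. FOXA1 was at 8.99 with VPA, 9.04 with GEM, 8.86 with the combination and 8.72 without drug. The 4 arrays had the same order as for SOX9, with a smaller spread of 0.31. FOXA1 was at 0.27 for VPA over untreated and 0.31 for GEM over untreated, and 47.5% and 40.0% of genes at level differed by at least as much. FOXA2 was at 7.74 with VPA, 7.57 with GEM, 7.72 with the combination and 7.68 without drug, and FOXA3 was at 8.24, 8.30, 8.25 and 8.44 on the same arrays. All FOXA2 and FOXA3 ratios lay within 0.29, which is 2 times the robust SD of the closest pair of arrays. Of the FOXA1 ratios only that for GEM over untreated lay beyond it. No order of arrays is read from FOXA2 and FOXA3. The largest FOXA3 ratio in size was -0.20, for VPA over untreated, and the largest FOXA2 ratio was 0.17, for VPA over GEM. In each of the 6 comparisons at least 26.8% of genes at level differed by as much as either gene.

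HNF4G, the intestinal paralogue of HNF4A, was lower on both single-drug arrays. It was at 6.97 with VPA, 6.70 with GEM, 7.38 with the combination and 7.38 without drug. The combination and untreated arrays gave equal values to 2 decimals, and both stood above the VPA and GEM arrays. The log2 ratio over untreated was -0.41 with VPA and -0.68 with GEM. On the GEM array the signal was thus 1.60-fold lower. The combination was at 0.68 over GEM and at 0.41 over VPA. HNF4G was below the array median on all 4 arrays, and none of its ratios reached 2-fold.

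PROX1, the homeodomain factor of hepatoblasts, was at 5.89 with VPA, 5.93 with GEM, 6.12 with the combination and 5.98 without drug. All 4 values lay below the 25th percentile of rows and within 0.23 of each other. No order is read from them.

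**Figure D1:**
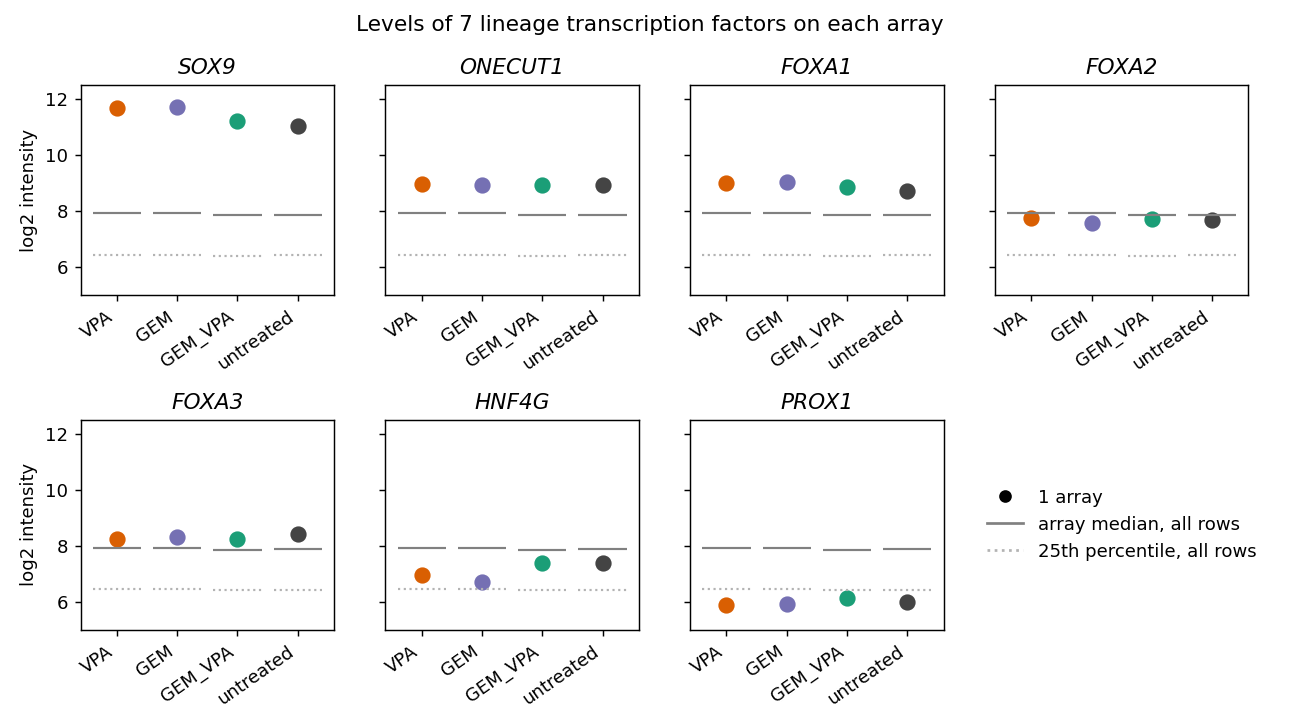
Log2 intensity (vertical axis) of each measured gene on the VPA, GEM, combination (GEM_VPA) and untreated arrays, 1 point per array, with each array's median (solid line) and 25th percentile (dotted line) over all rows. SOX9 is highest on the VPA and GEM arrays, at 11.69 and 11.72, and HNF4G is lowest on them, at 6.97 and 6.70.

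No member differed 2-fold in any comparison. The count was 0 of 4 members at level in each of the 6, where the share of all genes at level that differed 2-fold was 4.00% for VPA over untreated. It was 4.49% for GEM and 0.148% for the combination, both also over untreated. The shares were 5.38% for the combination over GEM, 3.16% for the combination over VPA and 0.305% for VPA over GEM. With so few members and shares of this size, a count of 0 does not set the members apart. At a limit of 1.5-fold, SOX9 alone was counted with VPA (1 of 4, against 17.0% of genes at level) and with GEM (1 of 4, against 17.0%). HNF4G was 1.60-fold lower with GEM, but it was not at level and so could not be counted.

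A smaller yardstick was the spread of the closest pair of arrays, which also differ in treatment. A limit of 2 times that spread is 0.29. For VPA over untreated 2 of 7 members, SOX9 and HNF4G, lay beyond it, against 32.4% of all genes. For GEM over untreated 3 of 7 did, FOXA1 being the third, against 31.7%. For the combination over untreated 0 of 7 did, against 9.11%, and for VPA over GEM 0 of 7, against 11.7%. For the combination over GEM and over VPA, SOX9 and HNF4G were again the 2 of 7, against 33.4% and 30.7%. Read against these shares, the counts did not set the members apart.

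**Figure D2:**
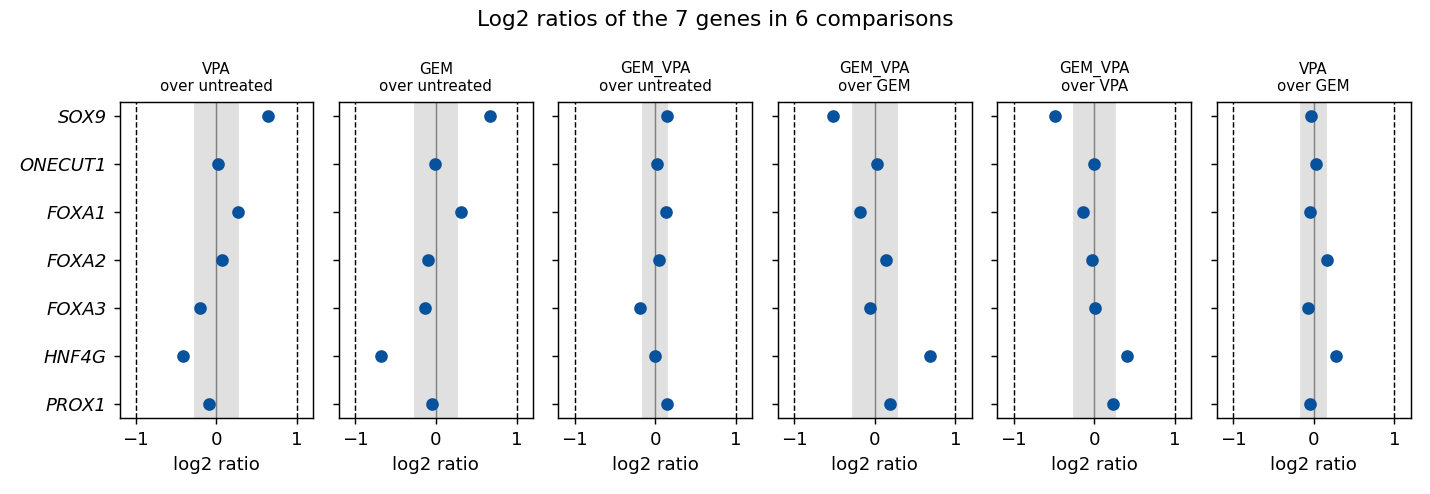
Log2 ratio (horizontal axis) of each gene in the 6 comparisons. Points are single ratios of 2 arrays, the grey band is 1 robust SD of the ratios over all genes on either side of 0, and dashed lines mark 2-fold. All points lie inside the dashed lines, and SOX9 and HNF4G lie on opposite sides of 0 for VPA over untreated, at 0.64 and -0.41.

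The range over the 4 arrays was 0.67 for SOX9 and 0.68 for HNF4G, larger than that of 85.0% and 85.5% of genes. The median range was 0.23 over the 7 members and 0.30 over all genes. No member reached the range of 1 set for naming genes of like pattern, so none are named. Within a Euclidean distance of 0.1 between centred profiles of the 4 arrays there were 49 other genes at level for SOX9 and 69 for HNF4G, fewer than the 247 to 806 found for each of the other members. Counts within a fixed distance depend on the range of a gene, so they add nothing separate to the ranges.

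Each drug was also compared in the presence and in the absence of the other drug. The 2 ratios of a drug share no array, but both drugs were compared over the same arrays. The difference between the 2 ratios is therefore the same for GEM and for VPA. GEM went with a SOX9 log2 ratio of -0.49 in the presence of VPA and 0.67 in its absence. VPA went with a SOX9 ratio of -0.52 in the presence of GEM and 0.64 in its absence. HNF4G had the opposite signs, at 0.41 and -0.68 for GEM and at 0.68 and -0.41 for VPA. The departure from additivity, the value with both drugs plus that with none, less those with each drug alone, was -1.16 for SOX9 and 1.09 for HNF4G. It was -0.45 for FOXA1, 0.28 for PROX1, 0.15 for FOXA3, 0.08 for FOXA2 and 0.00 for ONECUT1. A departure of at least 1 in size was found for 2 of the 7 members and for 13.8% of all genes, whose departures had a robust SD of 0.47.

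**Figure D3:**
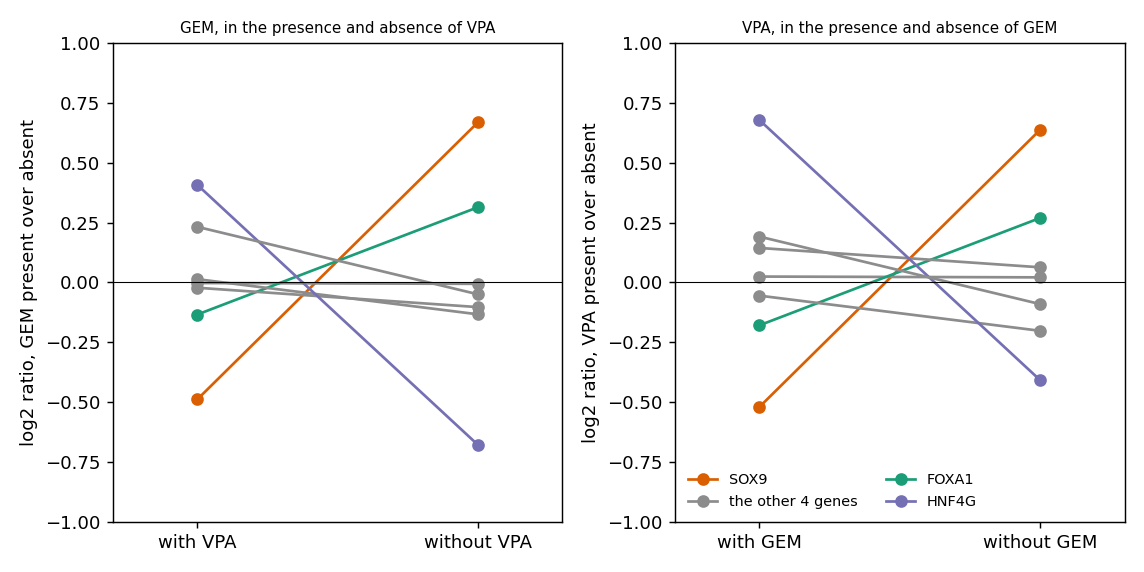
Log2 ratio (vertical axis) of GEM present over absent (left) and of VPA present over absent (right), with and without the other drug; lines join the 2 ratios of a gene. SOX9 goes between -0.49 and 0.67 for GEM, HNF4G crosses it in the other direction, and the 4 genes in grey stay within 0.23 of 0.

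Genes tied to the same lineages were then described, in lists chosen with earlier results of these data known. Of 28 biliary epithelial genes 24 were measured. For VPA over untreated 3 of the 13 at level were at least 2-fold higher (1.90% of all genes at level were) and 0 lower, and the median log2 ratio was 0.11, against -0.01 over all genes. The 3 were KRT7, a duct keratin (1.97), CD24, a progenitor surface protein with pseudogene copies that may share probes (1.75), and SPP1, osteopontin, a secreted duct cell protein (1.26). SPP1 was below the median on the untreated array, so it was at level only through the VPA array, where it was high. For GEM over untreated 2 of 12 at level were higher (1.48% of all genes at level), KRT7 (1.61, 3.04-fold) and CD24 (1.00, just at the limit and 0.96 with arrays centred), with a list median of 0.12. For the combination over untreated only SPP1 was counted (1.48), 1 of 14 at level, against 0.148% of all genes at level. It was at level only through the combination array, and the list median was -0.03. KRT19, another duct keratin, was at 0.51 with VPA, 0.61 with GEM and -0.14 with the combination, and CDH1, E-cadherin, at 0.86, 0.98 and 0.21. KRT7, KRT19 and CDH1 thus stood higher on the single-drug arrays, as SOX9 did, and the combination was near or below the untreated level of the keratins. EPCAM, the epithelial adhesion molecule, was at -0.15, -0.19 and 0.01. PROM1, a progenitor surface protein named after its values were seen, was at 10.48 with the combination and 10.41 without drug. It was lower with VPA (9.69) and GEM (9.73).

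SPP1 had a pattern unlike that of SOX9. Its log2 level was 8.91 with VPA, 7.28 with GEM, 9.13 with the combination and 7.65 without drug, so both arrays with VPA stood above both without it. For the combination over GEM, SPP1 (1.85) and MMP7, matrilysin (1.27), were higher, and KRT7 (-2.21) and ANXA4, an annexin (-1.11), were lower. That is 2 higher and 2 lower of 14 at level, against 5.38% of all genes at level in either direction. SPP1 and MMP7 were below the median on the GEM array, so both were at level only through the combination array. For the combination over VPA, KRT7 (-2.57) and CD24 (-1.02, or -0.96 with arrays centred) were lower. These were 2 of 14 at level, against 3.16% of all genes at level in either direction. For VPA over GEM only SPP1 was counted (1.63), 1 of 13 at level, against 0.305% of all genes at level. It was at level only through the VPA array. The list medians were -0.14, -0.15 and -0.01 in these 3 comparisons.

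Of 34 hepatocyte function genes 32 were measured, and 15 lay below the 25th percentile on all 4 arrays. Only 5 were at level in each comparison over untreated, and 0 of the 5 were counted with VPA, GEM or the combination, against 4.00%, 4.49% and 0.148% of all genes at level. With so few genes at level a count of 0 says little. The list medians were 0.01, -0.04 and -0.04. SERPINA1 was the only gene of the list counted elsewhere. The count was 1 of 4 at level for the combination over GEM, against 5.38% of all genes at level. It was 1 of 5 for the combination over VPA, against 3.16%. SERPINA1 was at -1.15 for the combination over GEM and -1.23 for the combination over VPA. Its level was 9.47 with VPA, 9.39 with GEM, 8.23 with the combination and 8.58 without drug, so that it too was highest on the single-drug arrays.

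Of 32 other hepatobiliary and foregut transcription factors 26 were measured and 21 or 22 were at level, depending on the comparison. In the 6 comparisons 0 were counted, against 0.148% to 5.38% of all genes at level. Their median over untreated was -0.05 with VPA, 0.00 with GEM and -0.03 with the combination. HHEX, a homeodomain factor of the liver bud, and NR5A2 (LRH-1), a nuclear receptor of bile acid metabolism, are named after their values were seen. HHEX was at 7.94 with VPA, 7.72 with GEM, 8.34 with the combination and 8.57 without drug. NR5A2 was at 8.01, 7.46, 8.44 and 8.14 on the same arrays. Both were lowest with GEM, as HNF4G was. NR5A2 was just short of the limit for the combination over GEM (0.97) and passed it when the columns were quantile normalized again (1.01) or centred on their medians (1.02). GATA6, an endoderm factor also named after its values were seen, was at 0.33 with VPA, 0.36 with GEM and 0.23 with the combination over untreated.

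Among Notch pathway genes, which act upstream of SOX9 in developing ducts, 24 of 26 were measured and 19 or 20 were at level. Over untreated, 0 were counted with VPA, GEM or the combination, against 4.00%, 4.49% and 0.148% of all genes at level, and the medians were -0.04, 0.07 and 0.01. MAML2, a Notch coactivator, was at 1.12 for the combination over GEM, the only counted value of the list. That is 1 of 19 at level, against 5.38% of all genes at level, so the list was near the share of all genes. NOTCH3, a receptor named after its values were seen, was at 0.70 with VPA, 0.75 with GEM and 0.14 with the combination over untreated, in the same order of arrays as SOX9. The other measured receptors did not have that order. In the same comparisons NOTCH1 was at -0.10, 0.27 and -0.15, NOTCH2 at 0.40, 0.32 and 0.43, and NOTCH4 at -0.09, -0.05 and -0.04. Notch target genes, also named after their values were seen, differed among themselves. HES1 was at 0.47 with VPA, 0.07 with GEM and 0.08 with the combination over untreated. NRARP was at -0.40, -0.19 and -0.28 in the same comparisons, and HEYL at -0.13, -0.25 and -0.07.

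**Figure D4:**
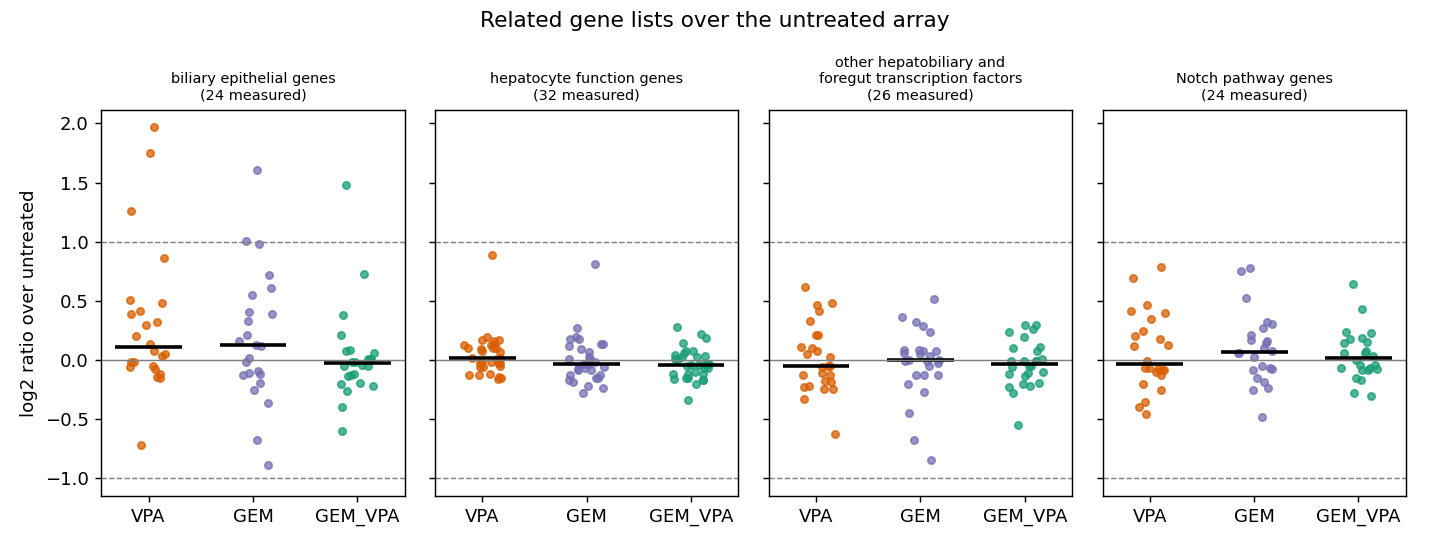
Log2 ratio over untreated (vertical axis) for the measured genes of 4 lists with VPA, GEM and the combination; each point is a gene, black bars are list medians and dashed lines mark 2-fold. The biliary list holds all the points above 1, with KRT7 at 1.97 for VPA, and the medians of all 4 lists lie between -0.05 and 0.12.

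The gene families of the members were read with the members in them. Of 39 FOX family genes, FOXM1, a cell cycle forkhead factor, was the only one counted, at -1.15 for GEM over untreated and 1.02 for the combination over GEM (0.94 after quantile normalization of the columns again). That is 1 of 25 at level for GEM over untreated, against 4.49% of all genes at level, and 1 of 26 for the combination over GEM, against 5.38%, so the family was near the share of all genes. Of 19 SOX family genes 12 were at level in each of the 6 comparisons, SOX9 among them, and 0 were counted, against 0.148% to 5.38% of all genes at level. The medians of the FOX family over untreated were 0.10 with VPA, 0.07 with GEM and -0.01 with the combination, and those of the SOX family 0.00, 0.04 and -0.02. ONECUT2, the paralogue of ONECUT1, was at 9.03 with VPA, 9.08 with GEM, 9.19 with the combination and 9.08 without drug. PROX2, the paralogue of PROX1, was below the median on all 4 arrays.

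Marker genes of other cell types were read beside these values. Of 11 measured leukocyte genes, 2 were at level for VPA and 3 for GEM over untreated. Of these 0 were counted, against 4.00% and 4.49% of all genes at level. CD68, a lysosomal protein, was just short of the limit there, at 0.94 with VPA and 0.93 with GEM, and passed it after quantile normalization of the columns again (1.03 in both). Like SOX9 it was thus higher on the single-drug arrays. LYZ, lysozyme (-1.72), and CD68 (-1.28) were lower for the combination over GEM, and CD68 was lower for the combination over VPA (-1.28). That is 2 of 3 at level against 5.38% of all genes at level, and 1 of 2 against 3.16%. LYZ was at level only through the GEM array. PTPRC, the leukocyte common antigen, was below the 25th percentile on all 4 arrays, while CD3E, a T cell receptor chain, lay between it and the median on all 4. The mean log2 level of the list was 7.39 with VPA, 7.43 with GEM, 7.05 with the combination and 7.21 without drug. Of 12 fibroblast and stellate genes 3 were at level, and ACTA2, smooth muscle actin, whose actin relatives may share probes, was the only one counted (1.61 with VPA and 1.56 with GEM over untreated, -1.58 and -1.62 for the combination over GEM and over VPA). In these comparisons that is 1 of 3 each time, against 4.00%, 4.49%, 5.38% and 3.16% of all genes at level. Of the fibroblast check markers, DCN, decorin, was below the 25th percentile on all 4 arrays. COL1A1, a collagen, was above the median on all 4, and COL3A1 and PDGFRB lay between the 25th percentile and the median on all 4. The mean level of that list was 7.27, 7.28, 7.11 and 7.17 on the same arrays. Of 12 endothelial genes only 1 was at level, so that the others could not be counted, and it was not counted in any comparison. Among all genes at level 0.148% to 5.38% were counted, depending on the comparison. The mean levels of the list were 6.58, 6.58, 6.57 and 6.60. The part of these genes in the SOX9 and HNF4G values was not tested.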

How the data were processed

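HuCCT1 RNA was hybridised to Affymetrix Human Gene 1.0 ST arrays, 1 array per condition. The authors deposited log2 intensities. Normalization used GeneSpring GX 11.5 according to the series design text, and the submitters' processing notes name RMA, which gives all arrays the same distribution of probe signals and compresses low values. Depth has no counterpart here, and the number of arrays limits the precision.

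The platform annotation gave 1 symbol to 19310 of 28869 rows, and a gene took the mean of its rows (18377 genes). A difference was counted when the log2 ratio was at least 1 in size, from the ratio limits of 2 and 0.5 in the series text, and the higher value reached its array's median over all rows ("at level"). No test was run. The named genes were all members, up to 4 counted genes of each list and comparison, and the 3 genes nearest in pattern to any member with a range of at least 1. Named outside this rule were cell type markers, paralogues of members and the genes said to be named after their values were seen. The 8 members, the 7 lists and 3 gene families, and the motifs were chosen with earlier results of these data known. Promoters came from RefSeq (GRCh38.p14). Alternatives covered normalization, row choice, level filter and fold limit. Software was Python 3.11.15 with numpy 2.4.6, pandas 2.3.3 and matplotlib 3.10.9.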

Additional observations from a re-analysis of the deposited data

Results flagged for a closer look

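The ratio of SOX9 for GEM had opposite signs with and without VPA, and its ratio for VPA had opposite signs with and without GEM, each beyond 0.29 in size; the departure from additivity was -1.16. HNF4G did the same with the signs turned, and its departure was 1.09. Each ratio rests on 2 single arrays, and the difference between the 2 ratios of a drug was not tested. For each gene that difference is the same for GEM and for VPA, so the 2 reversals are not separate findings. A gene that differs mainly between the close pairs of arrays (VPA with GEM, combination with untreated) shows both reversals together. The share of all genes with opposite signs beyond 0.29 was not computed. Of all genes, 10.4% departed by at least as much as SOX9 and 11.9% by at least as much as HNF4G.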

How the results depend on the processing

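No paired analysis was possible because each condition had 1 array. An alternative value was held to be close when it moved by less than 0.15, the robust SD between the closest pair of arrays. All 42 member ratios stayed that close after quantile normalization of the columns again, with arrays centred on their medians, and with 1 row per gene. Only the first setting could have failed. Centring moves all ratios of a comparison by the same amount, which was always below the limit. Each member had 1 row, so the row choice could not change its ratios. The largest shifts were 0.11 and 0.06 under the first 2 settings. Ratios near 0 of ONECUT1, FOXA2 and HNF4G changed sign there, none of them counted. The count of members stayed at 0 in all comparisons but for the limit of 1.5-fold, with 1 for VPA and 1 for GEM over untreated. No member ratio was larger than 0.68 in size, so the other level filters and a 3-fold limit could not change that count. The SOX9 departure was -1.33 after quantile normalization again.

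Over list members at level alone, the biliary medians were 0.41 (VPA) and 0.48 (GEM) over untreated, and -0.42 for the combination over either drug. The higher value decides which genes are at level, so the genes behind a median can differ between comparisons. No median over all genes at level was computed to set beside these values. In the order VPA and GEM over untreated, the combination over GEM and over VPA, the leukocyte medians were 0.50, 0.93, -1.28 and -0.68, over only 2 or 3 genes. The fibroblast medians were 0.29, 0.39, -0.35 and -0.25. The endothelial median was -0.19 over VPA, from 1 gene. After quantile normalization again, 1 other transcription factor, NR5A2, was counted for the combination over GEM (1 also with centring), 1 leukocyte gene, CD68, for VPA and for GEM over untreated (1.03 in both), and 0 FOX genes for the combination over GEM. With centring, 1 biliary gene was counted for GEM over untreated and 1 for the combination over VPA, since CD24 fell short. These values lay close to the limit of 1. The cause was not tested. Low signals of PROX1, HNF4G and FOXA2 limit what their ratios can show.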
